A study of Mus musculus with 4 samples.

Results

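The collagens are the main structural proteins of the extracellular matrix, and 42 genes of the array's annotation carry a collagen symbol (Col, a number, a, a number), out of 18193 genes named there. Probe sets are groups of short oligonucleotides that together read 1 transcript, and 82 of the 45037 on the array read 1 collagen gene each. Adrenal glands came from male mice 2 months old, and their RNA was read on Affymetrix Mouse Genome 430 2.0 arrays, 2 from wild-type mice and 2 from V1a_KO mice, which lack the V1a vasopressin receptor. Per the labels' protocols, TRIzol was used for total RNA and mRNA was then purified from it. The strain, the deleted part of the gene and the number of animals behind an array are not in the labels, and p-values therefore reflect the spread between these 4 samples alone, which may be technical. Values are log2 expression units, in which a step of 1 is a 2-fold difference, and differences are knockout minus wild type. Probe sets entered the test where 2 or more of the 4 arrays read 4 log2 units or higher. That left 19 collagen genes, read by 26 probe sets, among 10110 genes tested, and where a gene had several, the brightest on average represents it.

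Collagen chains wind in threes into a rope whose core is rich in glycine, and the family is sorted by what the finished molecules build. Fibrillar collagens form the ropes of interstitial tissue, collagen IV forms the sheet of basement membranes, collagen VI forms beaded filaments beside cells, and the FACIT collagens and multiplexins decorate fibrils and basement membranes. The adrenal gland is wrapped in a fibrous capsule and threaded by sinusoidal capillaries whose endothelium rests on a basement membrane, and capsular, stromal and vascular cells are the usual sources of its collagens. In whole-gland RNA, fewer cells of a type and less RNA per cell cannot be told apart.

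Among the collagens, the genes of the 2 common collagen IV chains lie back to back, and their starts are shown first because both were read well on every array. Col4a1 and Col4a2 are on chromosome 8 on opposite strands, with annotated starts 21 bases apart (GRCm38.p6). Each window below holds 250 bases before the start and 50 after it, and the windows share 78 bases. Col4a4, on chromosome 1, is shown with them because it had the smallest p among the 19 collagens. Other collagen IV genes also lie in neighbouring pairs. Col4a5 and Col4a6 are on opposite strands of the X chromosome, with annotated starts 1343 bases apart. The annotated spans of Col4a3 (from 82586921) and Col4a4 (to 82587034) overlap. Capitals mark the GC box letters GGGCGG and the CCAAT letters, on either strand, which do not overlap each other here.
Col4a1, chr8:11312777-11313076, minus strand: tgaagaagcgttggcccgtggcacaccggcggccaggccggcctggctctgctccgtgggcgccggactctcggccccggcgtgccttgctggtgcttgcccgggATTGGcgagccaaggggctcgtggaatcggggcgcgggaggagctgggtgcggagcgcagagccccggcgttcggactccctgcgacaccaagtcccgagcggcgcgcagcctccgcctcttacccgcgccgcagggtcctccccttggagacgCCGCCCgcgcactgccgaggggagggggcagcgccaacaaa
Col4a2, chr8:11312555-11312854, plus strand: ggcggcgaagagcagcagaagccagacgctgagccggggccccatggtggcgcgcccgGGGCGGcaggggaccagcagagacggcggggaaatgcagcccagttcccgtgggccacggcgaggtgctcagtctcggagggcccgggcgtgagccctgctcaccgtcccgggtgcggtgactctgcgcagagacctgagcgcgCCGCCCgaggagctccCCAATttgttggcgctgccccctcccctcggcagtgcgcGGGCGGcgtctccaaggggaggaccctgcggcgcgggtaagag
Col4a4, chr1:82586800-82587099, minus strand: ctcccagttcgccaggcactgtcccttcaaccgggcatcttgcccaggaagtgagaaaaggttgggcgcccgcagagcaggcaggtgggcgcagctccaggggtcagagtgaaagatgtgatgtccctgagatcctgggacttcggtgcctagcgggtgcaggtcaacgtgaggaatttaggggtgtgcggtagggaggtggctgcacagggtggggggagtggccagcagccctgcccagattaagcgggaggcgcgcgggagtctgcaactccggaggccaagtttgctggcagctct

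The Col4a1 window held 1 GC box and 1 CCAAT match, and the Col4a2 window 3 and 1. In the Col4a4 window neither was found. The GC box of the Col4a1 window lies in the 78 shared bases. It is the last GC box of the Col4a2 window read on the other strand, so this site is counted in both. The sequences are those of RefSeq, which gave 36 windows for 33 of the 42 collagen genes. GC box letters were in 22 of these 36 windows and in 35.7% of 32851 windows of all genes, and CCAAT letters were in 13 of the 36 and in 37.4% of all. A match describes the letters of the window only.

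On a whole-array scale the samples were not equally alike. Wild-type array 1 correlated with the other 3 arrays at 0.919 to 0.924 across tested probe sets, which are not independent replicates, and the others with each other at 0.974 to 0.986. The 2 probe sets of Avpr1a, the targeted gene, read 2.31 to 2.60 on the 4 arrays, close to the lowest value of 2.30, and do not check the genotype labels. Markers of adrenal cortex (8 of 8 on the array) and of chromaffin cells (7 of 7) were all tested. Of 12 capsule and fibroblast markers 10 were tested, among them Pdgfra, which marks fibroblasts, at 7.26 to 7.92, while Gli1, a marker of capsular progenitor cells, read 2.30 on each array. Liver markers were at a median of 7.87 on wild-type array 1, against 2.36 to 2.47 elsewhere, and Alb, the albumin gene, read 8.86 there, against 2.42 to 2.43 elsewhere. Kidney and skeletal muscle markers had medians of 2.31 to 2.41 on all arrays.

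The knockout glands gave no collagen that passed a threshold in either direction. With limma's test over all probe sets, 0 of the 19 collagens had an adjusted p under 0.05, where 0% of the 10110 genes did, and 0 of 19 had an unadjusted p under 0.05, where 5.06% of all genes did. The differences ran from -0.61 in Col4a4 to 0.48 in Col4a5, 8 above and 11 below 0, with a median of -0.01, beside a median of -0.05 over all genes tested. Of all genes tested, 43.8% lay above 0 and 56.0% below. With each array centred on its median, 10 collagens lay above and 9 below, where 47.2% of all genes lay above. In 18 of the 19 the difference was smaller than 0.5 log2 units. Both knockout arrays lay outside the wild-type pair in 3 of the 19 collagens (15.8%), against 37.7% of all genes. Col14a1 was the 1 apart upward, as were 17.1% of all genes, and Col4a4 and Col6a2 the 2 apart downward, as were 20.5%. The count depends on the probe set taken for a gene. By probe set, 7 of the 26 collagen probe sets were apart, against 6448 of all 17228 tested. With SEs of 0.15 to 0.72, these arrays leave room for differences of unlike size. The 95% interval of Col6a1 ran from -0.58 to 0.36, and that of Col5a3 from -2.13 to 1.98.

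**Figure D1:**
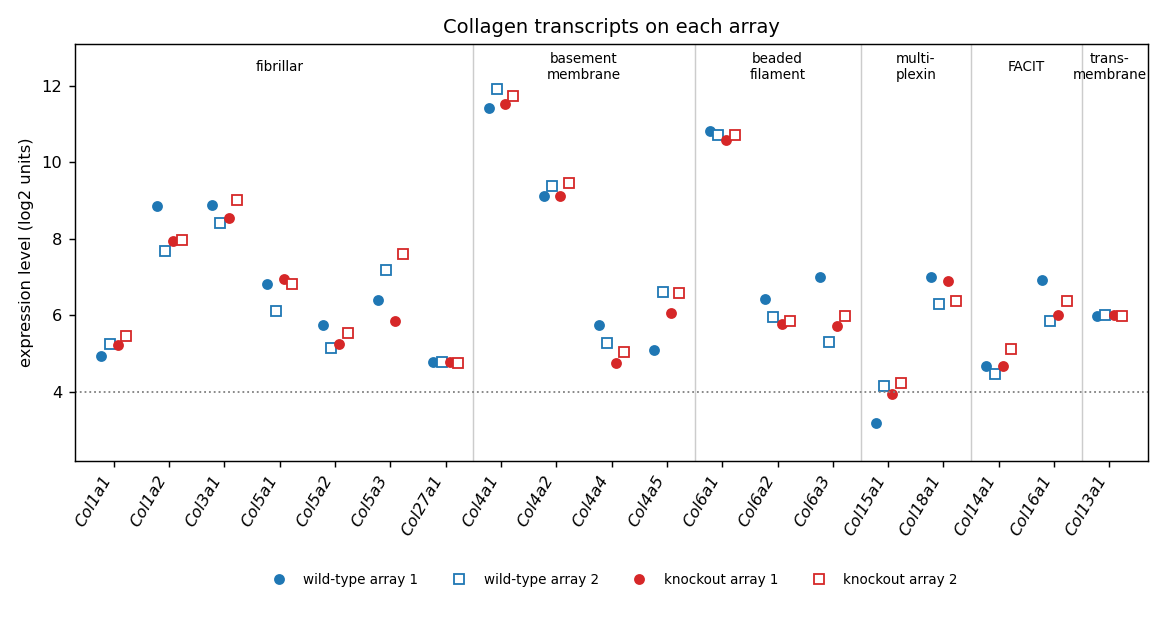
Expression level (log2 units) of the 19 tested collagens on each array, 1 point per array, by class, with filled circles for array 1 and open squares for array 2 of each genotype; the dotted line is the filter at 4. Wild-type and knockout points overlap in 16 of the 19 genes, and wild-type array 1 stands above the other arrays in Col1a2, Col6a3 and Col16a1 and below them in Col4a5 and Col15a1.

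Type I collagen is the chief rope-forming collagen, built of alpha-1 and alpha-2 chains. Col1a1, which encodes the alpha-1 chain, read 4.94 and 5.26 in wild type, against 5.23 and 5.47 in V1a_KO. The difference was 0.25 (SE 0.21, limma adjusted p = 0.795, n = 2 per genotype), and the genotypes overlapped by a narrow margin. Col1a2, the alpha-2 chain, read 8.87 and 7.69 in wild type, against 7.94 and 7.96 in V1a_KO. Wild-type array 1 was the high one, the other 3 lay from 7.69 to 7.96, and the difference was -0.33 (SE 0.46). Without that array it turned to 0.26.

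Col3a1, the chain of type III collagen, which forms thin reticular fibres beside type I, read 8.89 and 8.42 in wild type, against 8.56 and 9.01 in V1a_KO. Its highest array was knockout array 2 and its lowest wild-type array 2, and the difference was 0.13 (95% interval -0.68 to 0.94). It turned to -0.10 without wild-type array 2 and to -0.09 without knockout array 2.

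Type V collagen is a minor partner that starts and limits fibril growth. Col5a1 read 6.81 and 6.10 in wild type, against 6.94 and 6.81 in V1a_KO, where wild-type array 2 was the low array and the difference was 0.42 (SE 0.30). Without that array it was 0.066, and without wild-type array 1 it was 0.77. A second, dimmer probe set of Col5a1 read 4.97 and 4.62 in wild type, against 6.03 and 5.34 in V1a_KO. On it both knockout arrays were above both wild-type arrays, and its difference of 0.89 (SE 0.32, limma unadjusted p = 0.0550, adjusted p = 0.795) was the one furthest above 0 of the 26 collagen probe sets. Col5a2, the chain that pairs with it, read 5.75 and 5.13 in wild type, against 5.25 and 5.54 in V1a_KO, a difference of -0.05 (SE 0.29). Col5a3 read 6.40 and 7.19 in wild type, against 5.85 and 7.60 in V1a_KO. The knockout pair spanned 1.75 log2 units, which took in both wild-type values, and the difference was -0.08 (SE 0.72). Col27a1, a fibrillar chain best known from cartilage, read 4.76 to 4.77 on all 4 arrays. As a class the 7 tested fibrillar collagens had medians of 6.40 and 6.10 in wild type, against 5.85 and 6.81 in V1a_KO. The knockout pair enclosed the wild-type pair, but each median was the value of 1 gene. That gene was Col5a3 on array 1 and Col5a1 on array 2 of each genotype.

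Collagen IV of the alpha-1 and alpha-2 type underlies nearly all endothelium, and both chains differed by less than 0.05 log2 units between genotypes. Col4a1 read 11.44 and 11.93 in wild type, against 11.54 and 11.74 in V1a_KO, a difference of -0.04 (SE 0.25, 95% interval -0.75 to 0.66). Col4a2 read 9.12 and 9.39 in wild type, against 9.11 and 9.47 in V1a_KO, a difference of 0.03 (SE 0.22, 95% interval -0.61 to 0.67). In both genes, whose adjoining starts are printed above, array 2 of each genotype was above array 1. The dimmer probe set of Col4a1 did not share this arrangement and read 9.98 and 9.87 in wild type, against 9.56 and 9.71 in V1a_KO, with both knockout arrays lower and a difference of -0.29 (SE 0.17, limma adjusted p = 0.795).

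The other collagen IV chains build the networks of specialised membranes such as that of the kidney glomerulus. Col4a4 read 5.76 and 5.29 in wild type, against 4.76 and 5.05 in V1a_KO. Both knockout arrays were lower, and the difference of -0.61 (SE 0.25) had the smallest p of the 19 collagens in limma, 0.0769 unadjusted and 0.795 adjusted. It was -0.38 without wild-type array 1. The other tested probe set of Col4a4 gave nearly the same difference, -0.61 (SE 0.36), from 5.61 and 5.0 in wild type, against 4.38 and 5.01 in V1a_KO, where the genotypes overlapped. Col4a3, the usual partner of this chain, was below the filter on both of its probe sets, at 2.61 to 3.10. Col4a5 read 5.10 and 6.60 in wild type, against 6.07 and 6.58 in V1a_KO, so wild-type array 1 was the low one. Its difference of 0.48 (SE 0.60) turned to -0.27 without that array.

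Collagen VI is assembled from different chains into beaded filaments that tie cells and basement membranes to the interstitial fibrils. Col6a1 read 10.82 and 10.71 in wild type, against 10.60 and 10.71 in V1a_KO, a spread of 0.22 over all 4 arrays and a difference of -0.11 (SE 0.16). Col6a2 read 6.44 and 5.95 in wild type, against 5.77 and 5.85 in V1a_KO, with both knockout arrays lower and a difference of -0.38 (SE 0.24, limma adjusted p = 0.795), or -0.14 without wild-type array 1 and -0.63 without wild-type array 2. Its dimmer probe set, of the extended _x_at kind that may also read other transcripts, differed by -0.80 (SE 0.48), again with both knockout arrays lower. The margin rested on little: wild-type array 2 and knockout array 2 read 5.05 and 5.04 there. Col6a3 read 6.99 and 5.30 in wild type, against 5.72 and 5.98 in V1a_KO, a difference of -0.30 (SE 0.65), which turned to 0.54 without wild-type array 1. All 3 chains were highest on wild-type array 1. The class medians were 6.99 and 5.95 in wild type, against 5.77 and 5.98 in V1a_KO. Each was the value of 1 gene, Col6a3 on wild-type array 1 and knockout array 2 and Col6a2 on the others.

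The multiplexins sit in and beside basement membranes, and the end of collagen XVIII is cut off as endostatin, an inhibitor of vessel growth. Col18a1 read 7.0 and 6.29 in wild type, against 6.89 and 6.38 in V1a_KO, a difference of -0.01 (SE 0.35), while its dimmer probe set differed by -0.46 (SE 0.32). Col15a1 read 3.19 and 4.15 in wild type, against 3.94 and 4.23 in V1a_KO, a difference of 0.41 (SE 0.40), or -0.07 without wild-type array 1, the low array. It passed the filter through 1 wild-type and 1 knockout array.

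FACIT collagens attach to the surface of fibrils. Col14a1 read 4.66 and 4.47 in wild type, against 4.68 and 5.12 in V1a_KO. Both knockout arrays were higher, the nearest values being 4.66 and 4.68, and the difference was 0.33 (SE 0.23, limma adjusted p = 0.795). It was 0.11 without knockout array 2 and 0.55 without knockout array 1. Col16a1 read 6.93 and 5.86 in wild type, against 6.02 and 6.36 in V1a_KO, a difference of -0.20 (SE 0.44), or 0.33 without wild-type array 1. The tested membrane-bound collagen, Col13a1, which is anchored in the plasma membrane and known from muscle and its nerve contacts, read 5.98 to 6.01 on all arrays.

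**Figure D2:**
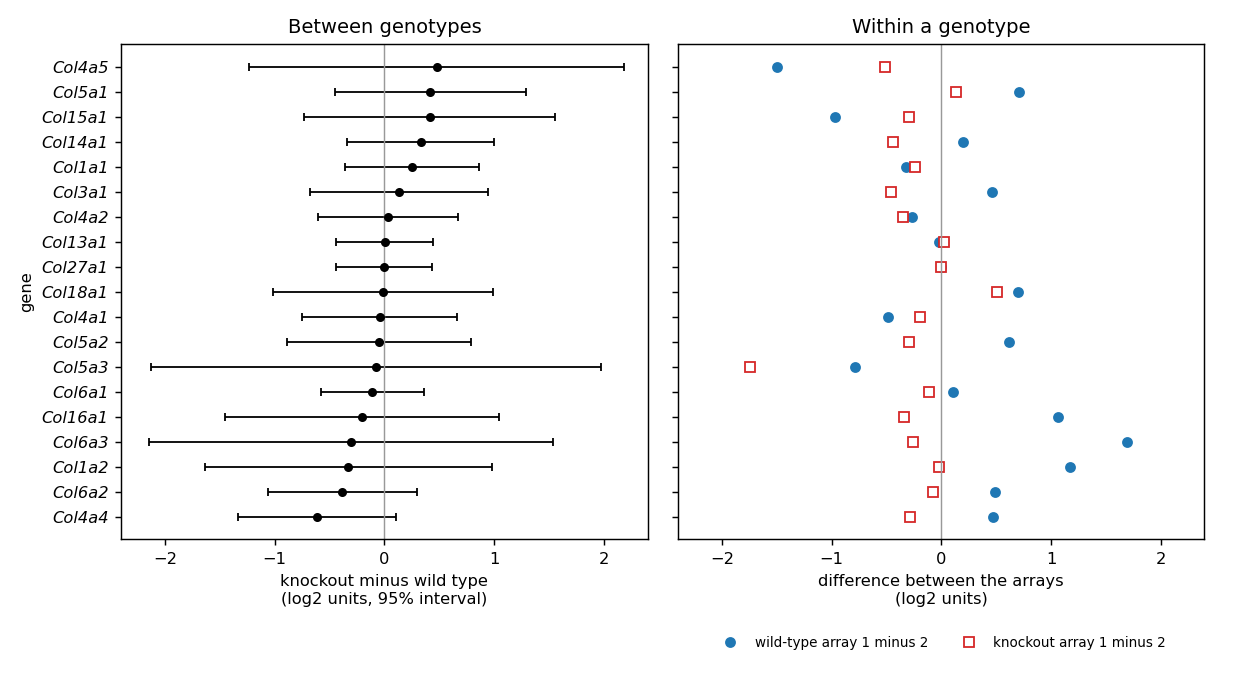
Left, knockout minus wild type for each tested collagen (log2 units, points, with limma's 95% intervals as bars); right, the difference between the 2 arrays of a genotype for the same genes. All 19 intervals include 0, and the gap between the wild-type arrays exceeds the size of the genotype difference in 15 of the 19.

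The remaining 23 collagen genes, read by 46 probe sets, did not reach the filter. Among them were the cartilage collagens Col2a1, Col9a1, Col9a2, Col9a3, Col10a1, Col11a1 and Col11a2, the epithelial anchoring and hemidesmosome collagens Col7a1 and Col17a1, and Col4a3, Col4a6, Col6a4, Col6a5, Col8a1, Col19a1, Col20a1, Col22a1, Col23a1, Col24a1, Col25a1 and Col26a1. These 21 genes stayed under 4 on every array. Col8a2, a chain of short-chain network collagen, and Col12a1, a FACIT collagen, reached it on 1 array, wild-type array 2, at 4.13 and 4.32. A reading near the lowest value does not show that a transcript is absent.

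Arrays of 1 genotype often differed by more than the genotypes did. The gap between the wild-type arrays was larger than the genotype difference in 15 of 19 collagens (78.9%), against 71.2% of all genes. It was over 1 log2 unit in Col6a3 (1.69), Col1a2 (1.18), Col16a1 (1.07) and, in the other direction, Col4a5 (-1.50). Wild-type array 1 was the highest array in 9 of 19 collagens (47.4%), beside 49.8% of all genes. Between the knockout arrays, array 1 was below array 2 in 15 of 19 collagens, with a median gap of -0.26, while over all genes 51.6% were below and the median gap was -0.01. The capsule and fibroblast markers had the same arrangement, 10 of 10 below with a median gap of -0.55, and so had the adipocyte markers, 6 of 6 with -2.28. Chromaffin markers were the other way round, 0 of 7 below with a median gap of 0.79. The summed log2 levels of the 12 capsule and fibroblast markers were 79.5 and 82.7 in wild type, against 76.5 and 83.2 in V1a_KO, and those of the 7 adipocyte markers 54.6 and 49.4 and then 40.8 and 52.5. Their part in the collagen values was not tested.

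Probe sets of 1 gene gave a second reading for 7 collagens. Their direction was the same in 6, namely Col1a1 (0.25 and 0.21), Col4a1 (-0.04 and -0.29), Col4a4 (-0.61 and -0.61), Col5a1 (0.42 and 0.89), Col6a2 (-0.38 and -0.80) and Col18a1 (-0.01 and -0.46). It was opposite in Col1a2, where the brighter probe set gave -0.33 and the dimmer one 0.23. The dimmer probe set of Col1a2 was highest on knockout array 2, at 6.20, and the brighter one on wild-type array 1. Both readings of a gene come from the same 4 RNA samples and are not independent replicates.

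**Figure D3:**
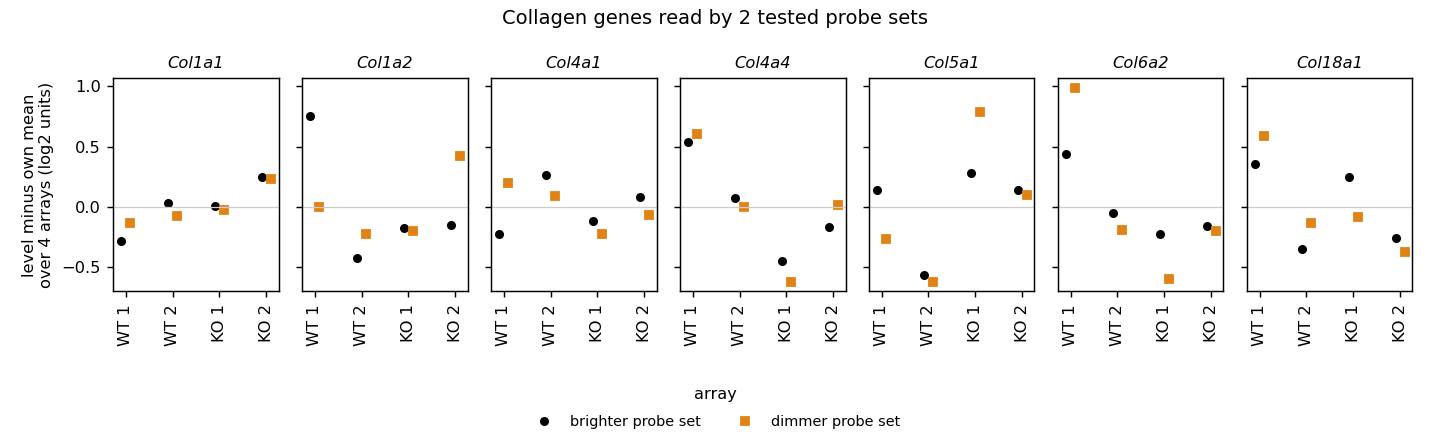
Level on each array minus the probe set's own mean over the 4 arrays (log2 units) for the 7 collagens with 2 tested probe sets, black circles for the brighter and orange squares for the dimmer probe set. The readings of Col4a4 run together, while those of Col1a2 part on wild-type array 1 and knockout array 2.

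Genes that fold, process, bind and break down collagens were taken from 7 lists of 119 genes, of which 110 were on the array and 79 tested. Of the 79, 0 passed limma's adjusted threshold and 7 (8.86%, against 5.06% of all genes) had an unadjusted p under 0.05, 1 higher (2.14% of all genes) and 6 lower (2.93%). The lists were not alike in how their members lay, and no list was tested as a set.

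Enzymes and chaperones that modify and fold procollagen in the endoplasmic reticulum lay lower in the knockout in 16 of 18 cases. Of all genes 56.0% lay lower. The median of the 18 was -0.29. Both knockout arrays were below both wild-type arrays in 11 of the 18 (61.1%), where 20.5% of all genes were. Plod2, a lysyl hydroxylase whose product guides crosslinks, read 10.16 and 10.22 in wild type, against 9.23 and 9.74 in V1a_KO, a difference of -0.71 (SE 0.24, limma unadjusted p = 0.0468, adjusted p = 0.795). A second probe set of Plod2 gave -0.29. Ppib, the cyclophilin of the prolyl 3-hydroxylation complex, read 12.90 and 13.03 in wild type, against 12.40 and 12.57 in V1a_KO, a difference of -0.48 (SE 0.17). The third by p, Plod3, which also adds sugars to hydroxylysine, differed by -0.45 (SE 0.20), from 6.75 and 6.62 to 6.07 and 6.40. Serpinh1, the collagen chaperone HSP47, and P4hb, a subunit of prolyl 4-hydroxylase, named here after their values were seen, differed by -0.30 (SE 0.18) and -0.18 (SE 0.17). Several of these proteins also serve other secreted proteins. Without wild-type array 1 the median was -0.14 and 14 of 18 lay lower, while 56.7% of all genes lay higher. Without wild-type array 2 the median of the 18 was -0.47.

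The proteoglycans and glycoproteins that coat and space fibrils lay lower in 13 of 15 cases, where 56.0% of all genes did. Their median was -0.49. Of the 15, 10 (66.7%) had both knockout arrays below both wild-type arrays, where 20.5% of all genes had. In 4 of the 15 the unadjusted p was under 0.05, all lower, where 2.93% of all genes were. Fmod, fibromodulin, read 7.63 and 7.58 in wild type, against 5.84 and 6.65 in V1a_KO, a difference of -1.36 (SE 0.34, limma unadjusted p = 0.0177, adjusted p = 0.795). Its dimmer probe sets gave smaller differences, -1.09 (SE 0.26) and -0.81 (SE 0.50), each with both knockout arrays lower. Ogn, osteoglycin, read 10.19 and 10.65 in wild type, against 8.84 and 9.52 in V1a_KO, a difference of -1.24 (SE 0.34), and a second probe set gave -1.51 (SE 0.17). Mfap5, a microfibril glycoprotein, went from 4.79 and 5.14 to 3.56 and 4.14, a difference of -1.12 (SE 0.29). Prelp, a relative of Fmod named after its values were seen, was the remaining one of these 4, at -0.88 (SE 0.26). Knockout array 1 was the lowest array in Fmod, Ogn, Mfap5 and Prelp, as it was in the capsule and adipocyte sums above, and the part of those cells was not tested. Smooth muscle and Schwann cell markers also lay lower in part. Of 6 tested smooth muscle and pericyte markers 4 were apart downward, where 20.5% of all genes were. They were the contractile genes Acta2 (-0.72), Tagln (-0.74) and Myl9 (-0.72) and the filament gene Des (-0.46). The other 2 were apart upward, Rgs5 (0.52) and Pdgfrb (0.89), where 17.1% of all genes were. The median of the 6 was -0.59, and Myh11, Cnn1 and Cspg4 were below the filter. The summed log2 levels of these 9 markers were 57.0 and 56.7 in wild type, against 54.9 and 56.3 in V1a_KO. Of 3 tested Schwann and glial markers 2 were apart downward, where 20.5% of all genes were. They were Sox10 (-0.81), which passed the filter only through wild type, and Fabp7 (-0.61), while Cdh19 differed by 0.04. The sums over 5 markers were 20.5 and 20.4 in wild type, against 19.2 and 18.6 in V1a_KO. Endothelium markers did not lie lower as a list. Of the 11 tested, 7 lay higher, where 43.8% of all genes did, and their median was 0.04. Among them 1 was apart upward and 2 downward, where 17.1% and 20.5% of all genes were. The part of these cells in the values of the fibril-coating proteins and of the folding enzymes was not tested. Dcn, Lum and Dpt stand in both this list and the capsule and fibroblast list. Fn1, the fibronectin gene, and Sparc, a collagen-binding glycoprotein, are also named after their values were seen. Fn1, at -1.47 (SE 0.78), read 6.16 on wild-type array 1 and 4.10 on wild-type array 2, against 3.52 and 3.80 in V1a_KO, and the liver markers above were likewise highest on wild-type array 1. It is the 1 member of the 15 that passed the filter only through wild type, where it is high. Sparc gave a difference of 0.03. With each array left out in turn, 12 to 14 of 15 members lay lower, and 38.2% to 56.7% of all genes lay higher. Without wild-type array 2 the median of the 15 was -0.90.

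**Figure D4:**
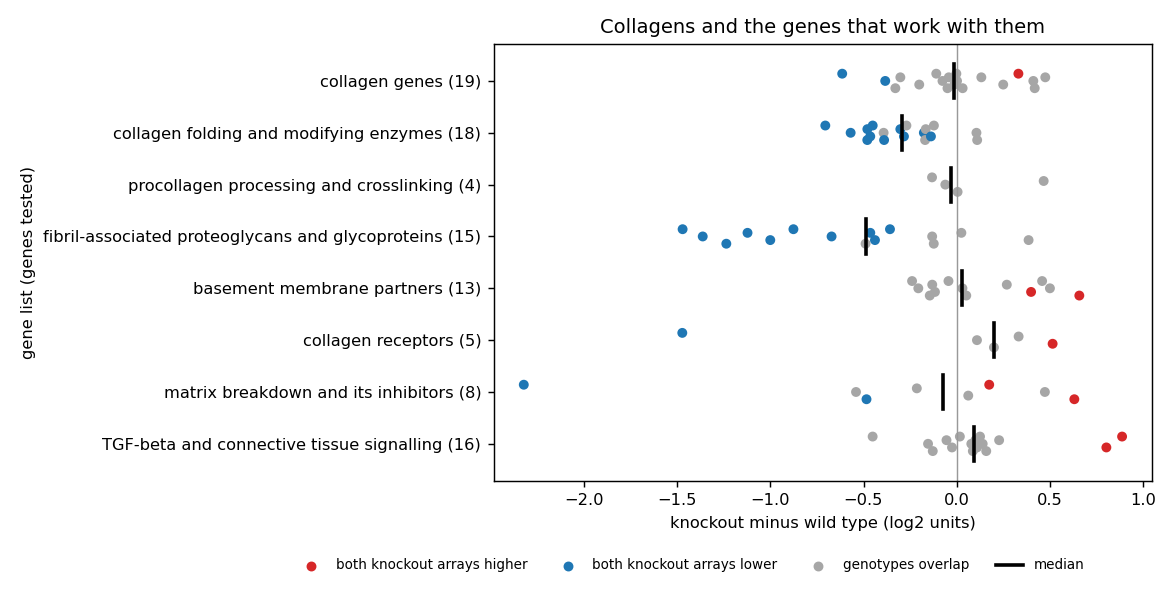
Knockout minus wild type (log2 units) for each tested gene of the collagens and of the 7 lists, 1 point per gene, with the list's median as a black bar; blue and red points have both knockout arrays below or above both wild-type arrays. The collagen median lies at -0.01, the folding enzymes at -0.29 and the fibril-coating proteins at -0.49.

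Laminins, nidogens and the other partners of collagen IV in basement membranes were spread around 0, with a median of 0.03. Of the 13, 7 lay higher, where 43.8% of all genes did. Nid2, Lamc1 and Nid1, the nidogens and a laminin chain that join the laminin and collagen IV networks, had the smallest p values, at 0.66 (SE 0.35), 0.40 (SE 0.25) and 0.50 (SE 0.34). Nid2 read 3.05 and 3.89 in wild type, against 4.20 and 4.06 in V1a_KO, and so passed the filter only through the knockout, where it is high. Without wild-type array 1 the differences were 0.24, 0.20 and 0.15. Among the 4 tested genes of procollagen trimming and crosslinking the median was -0.03. Pcolce, an enhancer of procollagen cleavage, differed by 0.47 (SE 0.43) on its brighter probe set and by -0.34 (SE 0.15) on the other, while Loxl1, a lysyl oxidase, differed by -0.13 and Adamts3, a procollagen protease, by -0.06. Of the 5 tested collagen receptors, 4 lay higher, where 43.8% of all genes did. Mrc2, which takes up collagen fragments, was the exception at -1.47 (SE 0.57), from 6.32 and 4.83 to 4.11 and 4.10. It was -0.73 without wild-type array 1 and -2.22 without wild-type array 2. Ddr1, a receptor kinase for collagen, differed by 0.52 (SE 0.25), but by -0.02 on the brighter of its plain probe sets. Another Ddr1 probe set gave 0.60 (SE 0.21), with both knockout arrays higher, and the remaining ones 0.11 and 0.05, with overlap. Itgb1, the shared beta chain of collagen-binding integrins, differed by 0.33 (SE 0.31), or 0.0055 without wild-type array 1. Its other probe sets gave 0.02 and, with both knockout arrays lower, -0.09.

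Matrix breakdown genes had a median of -0.08 over 8 genes. Mmp2, a gelatinase that cuts denatured collagen and collagen IV, read 6.31 and 6.11 in wild type, against 3.86 and 3.91 in V1a_KO, and its second probe set 5.86 and 5.42 and then 3.34 and 3.28. The differences were -2.32 (SE 0.17, limma unadjusted p = 0.000255, adjusted p = 0.311) and -2.33 (SE 0.22). Both probe sets passed the filter only through wild type, where they are high. By the brightest probe set of each gene, Mmp2 was the only one of the 79 past an unadjusted p of 0.01 with at least a 2-fold difference. Of all genes 0.692% were past both bounds, and Mmp2 did not pass the adjusted threshold. Second probe sets past both bounds were that of Mmp2 and that of Ogn (-1.51, limma unadjusted p = 0.00127). Mmp19, another matrix metalloproteinase, differed by 0.63 (SE 0.18, limma unadjusted p = 0.0299), and Timp1, an inhibitor of these enzymes, by -0.48 (SE 0.17). In the TGF-beta and connective tissue list, whose signals drive collagen synthesis in many tissues, 11 of 16 genes lay higher. Of all genes 43.8% lay higher. The list's median was 0.09. Pdgfrb, a growth factor receptor of pericytes and fibroblasts, differed by 0.89 (SE 0.45), Smad4, a mediator of TGF-beta signals, by 0.80 (SE 0.46) and Tgfb3 by -0.45 (SE 0.41). The dimmer probe set of Pdgfrb gave 0.43 (SE 0.27), with both knockout arrays higher. The other 2 probe sets of Smad4 gave 0.22, with overlap, and -0.13, with both knockout arrays lower. Wild-type array 1 was the lowest array in Pdgfrb and Smad4, at 7.84 and 8.99, and the highest in Tgfb3, at 6.37. Without it the differences of Pdgfrb and Smad4 were 0.32 and 0.23.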

How the data were processed

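The authors deposited 1 log2 value per probe set and array, made from CEL files with GCRMA under Bioconductor 3.14, as stated in the labels' protocols; the version of the package is not stated there. GCRMA models background from probe sequence, so weak probe sets gather near a floor and their differences are compressed. The values were used without further normalization. Control probe sets (64) were left out, and probe sets with 1 gene in the platform annotation took its name, checked by gene ID against GRCm38.p6 (0 symbols changed). The array medians over 17228 tested probe sets were 6.99 to 7.11. No array duplicated another, since at most 1.65% of tested values coincided in any pair.

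V1a_KO was compared with wild type in limma (version 3.58.1, R version 4.3.3) by lmFit and eBayes with genotype as the single term, and p-values were adjusted by Benjamini-Hochberg across every tested probe set, with 2 residual and 1.73 prior degrees of freedom. SEs are moderated by limma, and the number of arrays limits the precision. All tested collagens are named, with the 3 genes of smallest p in each other list and any gene past p 0.01 with a 2-fold difference; genes outside this rule are marked as named after their values were seen, and marker genes are named where their values lie beside a result. The members and lists were chosen with earlier results of these data known. The fit was tested on simulated data with less spread than the median of these probe sets and larger differences than those of the collagens. That test does not show how well differences of the collagens' size are found. Alternatives were no filter, a filter at 6, quantile normalization, median centring, a variance trend with robust eBayes, plain probe sets, averaged probe sets of a gene, the replicate number as a block, and each array left out in turn.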

Additional observations from a re-analysis of the deposited data

How the results depend on the processing

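In limma, 0 collagens and 0 of the genes that work with them passed the adjusted threshold under any alternative run, and the collagen median lay between -0.14 and 0.06 when each array was left out. Over all probe sets, 2 passed with a filter at 6, quantile normalization, centred arrays or plain probe sets, and 0 without a filter, with a variance trend, with the replicate block and without each array in turn; averaged probe sets were counted for the listed genes alone. Of 459 values of named genes under the alternatives, 431 kept their direction and 28 reversed. With differences this small beside the spread, the cause of each reversal was not tested. The 431 include runs that repeat a gene's main difference, namely no filter, a filter at 6, the variance trend and the replicate block. That count is therefore no measure of how stable the directions are.

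Without a filter, 1545 probe sets had an unadjusted p under 0.05 (885 with it) and 78 a p under 0.01 with a 2-fold difference (144 with it), and 2 collagens were apart upward and 5 downward, over 42 genes (10.8% and 13.6% of all genes). These counts of collagens apart were 0 and 0 with a filter at 6, which left 11 collagens (17.5% and 21.8%). Downward it was 4 after quantile normalization (22.8%). Upward it was 2 after centring (18.1%) and 3 with averaged probe sets (17.7%). On plain probe sets they were 0 and 1 over 15 collagens (16.4% and 19.9%). Col13a1 turned to -0.0018 after quantile normalization, Col18a1 to 0.011 and Col27a1 to 0.022 after centring, and Col1a2 to 0.23 and Ddr1 to -0.016 on plain probe sets. Without a filter the median of the fibril-coating proteins was -0.27 over 24 genes, nearer 0 than with it. That of the folding enzymes was -0.28 over 20 genes, and that of all genes was 0.

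Leaving out each array in turn gave 169 to 6507 probe sets at an unadjusted p under 0.05 and 25 to 1497 at p under 0.01 with a 2-fold difference, the highest of each without wild-type array 2. At the first of these thresholds there were 0 to 5 collagens and 1 to 29 genes that work with them, again most without wild-type array 2. Collagens apart numbered 3 to 8 upward and 4 to 9 downward, where 25.1% to 43.4% and 29.8% to 54.3% of all genes were apart, since 3 arrays separate more easily. The median of the folding enzymes ran from -0.47 to -0.14 and that of the fibril-coating proteins from -0.90 to -0.43. A genotype left with 1 array takes its spread from the other one in these fits. Ranges that crossed 0 were -0.92 to 0.26 in Col1a2, -0.10 to 0.37 in Col3a1, -0.29 to 0.20 in Col4a1, -0.14 to 0.21 in Col4a2, -0.27 to 1.22 in Col4a5, -0.36 to 0.26 in Col5a2, -0.95 to 0.80 in Col5a3, -1.15 to 0.54 in Col6a3, -0.012 to 0.016 in Col13a1, -0.073 to 0.90 in Col15a1, -0.73 to 0.33 in Col16a1 and -0.36 to 0.34 in Col18a1. Among the other genes they were -0.074 to 1.01 in Pcolce, -0.58 to 0.31 in Loxl1, -0.97 to 0.063 in Tgfb3 and -0.47 to 0.35 in Adamts3. Ranges on 1 side of 0 were 0.09 to 0.41 in Col1a1, -0.85 to -0.38 in Col4a4, 0.066 to 0.77 in Col5a1, -0.63 to -0.14 in Col6a2 and 0.11 to 0.55 in Col14a1. Those of Col6a1, -0.17 to -0.053, and Col27a1, -0.0022 to -0.00073, were also on 1 side.

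The replicate number as a block left each difference as it was and gave 0 adjusted calls, 684 probe sets at an unadjusted p under 0.05 and 0 collagens at that threshold. The numbers are shared by label only (correlation of deviations 0.15 over 2 pairs).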

Other observations

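Probe sets of Col13a1 and Col27a1 lay above the filter, yet hardly differed between arrays. They read 5.98 to 6.01 and 4.76 to 4.77, and their SEs of 0.15 come from the spread that limma shares between probe sets rather than from their own. A range under 0.05 log2 units over the 4 arrays was found in 2 of the 19 collagens (10.5%) and in 87 of 10110 genes (0.861%), a bound chosen after these values were seen.

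Capsular and stromal markers did not lie together on wild-type array 1. Wnt5a, a secreted signal of capsular cells, read 5.72 on it and 7.89 to 8.39 on the other 3 arrays, and Nr2f2, a transcription factor of stromal and venous cells, 6.40 against 8.44 to 8.68. Dcn, the decorin gene, and Mgp, a matrix protein of vessels, were highest there, at 10.55 and 11.73, as were Col1a2, Col6a3 and Col16a1. Rspo3, a Wnt-enhancing signal of the capsule, read 8.30 and 8.73 in wild type, against 6.52 and 7.78 in V1a_KO. Its difference of -1.37 had the smallest p of the 10 tested capsule and fibroblast markers in limma and does not stand for them all. By genotype, 5 of these 10 markers were above 0 and 5 below, and their median difference was -0.04. Wnt5a (1.25) and Nr2f2 (0.97) were among those above. Rspo3, Dcn and Lum were the 3 apart downward and 0 were apart upward, where 20.5% and 17.1% of all genes were.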
